A study of Mus musculus with 4 samples.

Results

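Integrins and laminins were followed across 2 mouse tumor cell lines cultured with or without interferon gamma (IFN-γ). The members were taken by symbol from a RefSeq gene table, as every gene named Itga or Itgb followed by letters or digits and every Lama, Lamb or Lamc gene, with the Itgb1bp genes left out. Of 40 such genes, 38 had a probe on the array, out of 20144 genes with a named probe, and these 38 were read by 51 probes. Itga10 and Itgae had no probe matched by accession. The members with probes comprised 16 integrin α genes, 11 genes with an Itgb symbol and 11 laminin genes. By the symbol rule they include 3 that are not laminin chains or classical integrin subunits: Itgb3bp, a centromere protein that also binds the β3 tail, Itgbl1, a secreted protein with integrin-like repeats, and Itgb2l, a gene related to Itgb2.

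The RNA came from LLC cells treated with IFN-γ, LLC cells given vehicle, AB1-HA cells treated with IFN-γ and AB1-HA cells given vehicle, all for 24 h. LLC (3LL in the sample titles) grew from a lung carcinoma that arose in a C57BL/6 mouse. AB1-HA derives from a BALB/c mesothelioma and is known to carry influenza hemagglutinin. Each group was 1 Agilent array, all on 1 slide, so no difference below has a replicate check and none was tested. The number of arrays limits the precision. The title names as its aim a regulator that holds down genes inducible by IFN-γ, and the sources used here do not state a dose.

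Integrins are pairs of an α and a β chain that span the membrane and tie the cytoskeleton to matrix proteins or to ligands on other cells. The α chain largely sets the ligand, and the β tail recruits talin and kindlins, which switch the receptor on. Laminins are trimers of an α, a β and a γ chain. They are secreted into basement membranes, the sheets under epithelia and mesothelia, and are bound by integrins of the α3, α6 and α7 type. Integrins of the β2 chain belong to leukocytes, and αIIb with β3 is the fibrinogen receptor of platelets.

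Values are processed signals in intensity units, in which the 75th percentile of gene probes lay between 1380 and 1598 on the 4 arrays. Signals are set against each other only for the same probe, since probes of different genes differ in brightness. Differences are on the log2 scale, relative to each array's 75th percentile, and ± gives the error that the scanner software assigned to the 2 spots. That error covers the spots and neither culture nor labelling. Where a probe was not well above background on 1 array, the difference is a bound ("at least") against the higher of its own signal and the lowest signal well above background there (7.01 to 8.26 units). A gene was counted as higher or lower at 2-fold, a threshold of size. A gene with several probes is counted through the brightest, and the others are given apart.

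On the 4 arrays, between 57.5% and 58.2% of 39429 probes were well above background, and no spot was saturated. All 7 genes used as a check of IFN-γ exposure (Irf1, Gbp2, Igtp, Cd274, Psmb9, Tap1 and B2m) passed 2-fold upward with IFN-γ in both lines. Among 8 lung epithelial markers, 1 in LLC with IFN-γ and 2 with vehicle were well above background, and in AB1-HA 2 with IFN-γ and 2 with vehicle. Sftpc, Sftpb, Sftpa1, Nkx2-1, Epcam and Cdh1 were not well above background on any array. Scgb1a1 read 42.4 and 24.9 units in LLC with IFN-γ and vehicle, and 19.0 and 19.4 in AB1-HA. Napsa read 8.35 (not well above background) and 12.7 units in LLC with IFN-γ and vehicle, against 373 and 328 in AB1-HA. Of 9 mesothelial markers, 5 in LLC with IFN-γ and 4 with vehicle were well above background, and in AB1-HA 4 with IFN-γ and 5 with vehicle. Their summed signal was 71.1 and 90.7 times the 75th percentile in LLC with IFN-γ and vehicle, and 35.7 and 45.5 times in AB1-HA with IFN-γ and vehicle. The sum in LLC was led by Krt18 (134098 units with vehicle), and single markers went both ways. Of 5 with a value between the lines with vehicle, 2 were 2-fold higher in LLC and 3 lower (median −1.69). Krt18 (8.92) and Krt8 (7.43) were higher, and Msln (−8.56), Krt19 (−1.69) and Pdpn (at least 1485-fold) were lower. Wt1, Upk3b, Calb2 and Lrrn4 were below background on every array. Leukocyte markers were well above background for 4 of 10 genes on each array, and among those below it on all of them were Ptprc, Cd79a, Lyz2, Laptm5 and Tyrobp. Their summed signal was 1.68 and 1.46 times the 75th percentile in LLC with IFN-γ and vehicle, and 1.37 and 1.42 times in AB1-HA with IFN-γ and vehicle.

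The promoters of 5 members that had a window and carried differences described below are printed. Lama5 and Itgax stood higher in LLC, Itgbl1 was well above background in AB1-HA and on neither LLC array, Itgb5 had the lowest measured IFN-γ difference in LLC, and Itgb8 had a bound above 2-fold in AB1-HA. Each window runs from 250 bases before to 50 after the RefSeq transcript start (build GRCm38.p6), written 5′ to 3′ along the gene, and capitals mark matches to the GC box (GGGCGG), the Sp1-type element, on either strand.
Lama5, chr2:180225810-180226109, minus strand: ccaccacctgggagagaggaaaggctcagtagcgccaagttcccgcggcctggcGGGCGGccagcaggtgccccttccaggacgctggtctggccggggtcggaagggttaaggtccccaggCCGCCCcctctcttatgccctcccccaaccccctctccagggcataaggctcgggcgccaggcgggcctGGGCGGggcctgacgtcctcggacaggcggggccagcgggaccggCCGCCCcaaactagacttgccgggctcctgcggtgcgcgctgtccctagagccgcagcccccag
Itgax, chr7:128129300-128129599, plus strand: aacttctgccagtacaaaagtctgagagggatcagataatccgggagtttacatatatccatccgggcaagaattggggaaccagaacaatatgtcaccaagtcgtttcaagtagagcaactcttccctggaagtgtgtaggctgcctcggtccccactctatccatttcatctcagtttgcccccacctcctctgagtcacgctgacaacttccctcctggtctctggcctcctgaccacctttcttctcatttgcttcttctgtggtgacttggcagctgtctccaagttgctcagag
Itgbl1, chr14:123659890-123660189, plus strand: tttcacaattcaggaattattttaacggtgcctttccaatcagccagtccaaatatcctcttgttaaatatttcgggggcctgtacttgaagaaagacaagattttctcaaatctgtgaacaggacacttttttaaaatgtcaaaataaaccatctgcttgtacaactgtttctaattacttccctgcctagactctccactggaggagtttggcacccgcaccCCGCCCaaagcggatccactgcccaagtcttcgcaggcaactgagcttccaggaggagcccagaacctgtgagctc
Itgb5, chr16:33829415-33829714, plus strand: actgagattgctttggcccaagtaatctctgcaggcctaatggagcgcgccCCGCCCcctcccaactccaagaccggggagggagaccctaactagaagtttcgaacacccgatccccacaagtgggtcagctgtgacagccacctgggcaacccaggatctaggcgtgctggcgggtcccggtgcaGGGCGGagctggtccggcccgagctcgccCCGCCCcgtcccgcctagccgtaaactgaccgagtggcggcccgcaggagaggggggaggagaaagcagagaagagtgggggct
Itgb8, chr12:119238227-119238526, minus strand: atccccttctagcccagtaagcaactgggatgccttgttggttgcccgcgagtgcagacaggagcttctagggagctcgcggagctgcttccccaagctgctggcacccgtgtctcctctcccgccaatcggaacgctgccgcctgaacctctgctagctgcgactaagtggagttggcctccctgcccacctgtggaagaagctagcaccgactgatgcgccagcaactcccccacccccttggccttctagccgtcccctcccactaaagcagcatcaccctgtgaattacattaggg

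Then 4 motifs were searched on both strands in the windows of the members, and 26 of the 40 member genes had 29 windows in the table. Itga6, Itga7, Itgb2, Itgb3 and Lama1 were among the members with no window, so they were not searched. The γ-activated site bound by STAT dimers (TTCNNNGAA) was found in 3 of the 29 windows (10.3%), those of Itga10, Itgb3bp and Lamb2, and in 8.3% of all 32851 promoters. The interferon-stimulated response element (a pair of GAAA blocks 2 bases apart) was found in 2 of 29 (6.9%), those of Itga2b and Itga3, and in 3.44% of all promoters. Neither motif was among the letters of the 5 windows above. The GC box was found in 13 of 29 windows (44.8%) and in 35.7% of all promoters, with 4 matches in Lama5, 3 in Itgb5, 1 in Itgbl1 and 0 in Itgax and Itgb8. The TATA motif (TATAAA) was found in 0 of 29 and in 13.6% of all promoters. The Lama5 window was 72.7% G and C with 24 CpG pairs, against 50% and 5 CpG pairs for Itgax, and the medians were 56.7% and 10 CpG over the members and 52.7% and 7 over all promoters. A match describes letters in this window only, and other positions of the genes were not searched.

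Most of the family was either measured on every array or on none. Of the 38 genes, 20 were well above background on all 4 arrays by at least 1 probe, and 10 on none: the collagen receptor chains Itga2 and Itga11, the chains Itga4, Itga8 and Itga9, the leukocyte chain Itgad, Itgb2l, the epithelial chain Itgb6, and the laminin chains Lama4 and Lamb3. Per array, 24 members in LLC with IFN-γ and 25 with vehicle were well above background, and in AB1-HA 24 with IFN-γ and 21 with vehicle. These are 63.2%, 65.8%, 63.2% and 55.3% of the members, where 65.4%, 65.6%, 65.0% and 64.2% of all named genes were well above background on the same arrays.

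**Figure D1:**
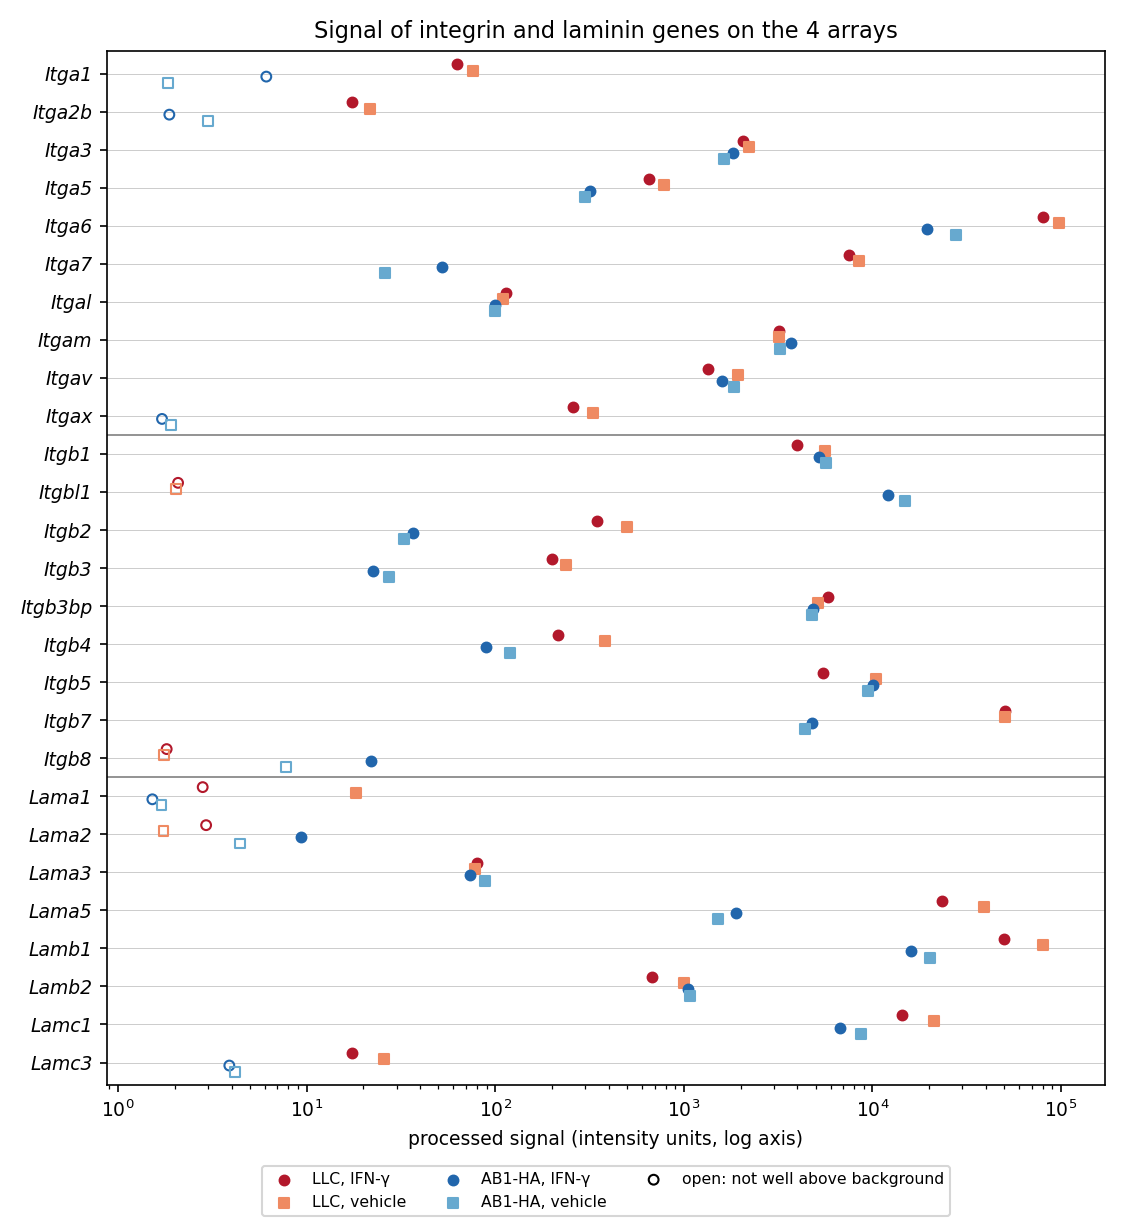
Processed signal (intensity units, log axis) of the reported integrin and laminin genes well above background on at least 1 array, by the brightest probe, with 1 point for each of the 4 arrays and open points where the probe was not well above background. Itga7, Itgax and Lama5 lie far to the right in LLC, and Itgbl1 far to the right in AB1-HA. For most genes the points of a line with IFN-γ and with vehicle lie close together. Gaps are seen among dim points, as for Lama1 in LLC and for Itga1, Itga7, Itgb8 and Lama2 in AB1-HA.

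The first comparison set LLC against AB1-HA, both with vehicle. Of 26 members with a value, 14 stood 2-fold or more above AB1-HA and 2 as far below it, or 61.5% of them, where 32.5% of 13836 genes with a value were past 2-fold (16.4% higher and 16% lower). The median over these members was 1.12, beside −0.05 over all genes with a value. By family, 6 of 10 α genes, 4 of 8 Itgb genes and 4 of 8 laminin genes were higher in LLC, and the 2 lower genes included Itgbl1. On the IFN-γ arrays, 14 of 27 members were higher in LLC and 3 lower, or 63.0%, where 28.6% of 13893 genes passed 2-fold (15.4% higher and 13.3% lower).

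Among the α chains of laminin receptors, Itga7 differed most. This chain pairs with β1 and is known as the laminin receptor of skeletal muscle. It read 7509 units with IFN-γ and 8477 with vehicle in LLC, against 52.2 with IFN-γ and 26.1 with vehicle in AB1-HA. Both LLC arrays were bright and both AB1-HA arrays dim but above background, a vehicle difference of 8.13 ± 0.29 or 281-fold, which was larger than those of 99.9% of the genes measured on both arrays. The size depends on the background step, since normexp correction gave 5.65.

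Itga6, the laminin receptor chain that pairs with β1 or, in hemidesmosomes, with β4, read 80533 units with IFN-γ and 98098 with vehicle in LLC, against 19576 and 27588 in AB1-HA with IFN-γ and vehicle. That is a vehicle difference of 1.62 ± 0.20. Its hemidesmosome partner Itgb4 read 216 and 380 units in LLC with IFN-γ and vehicle, and 88.8 and 120 in AB1-HA with IFN-γ and vehicle, 1.45 ± 0.21 higher in LLC with vehicle (0.72 under normexp). Both chains of this receptor were thus brighter on each LLC array than on either AB1-HA array. By contrast Itga3, the laminin receptor chain of many epithelia, lay between 1640 and 2215 units on all 4 arrays, with a vehicle difference of 0.22 ± 0.20.

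The fibronectin receptor chain Itga5 read 652 units with IFN-γ and 781 with vehicle in LLC, against 320 with IFN-γ and 300 with vehicle in AB1-HA. Its vehicle difference of 1.17 ± 0.20 passed 2-fold, and normexp correction took it under 2-fold. Itga1, a collagen receptor chain, read 62.9 and 76.3 units in LLC with IFN-γ and vehicle and was not well above background on either AB1-HA array by its brighter probe, at least 7.98-fold higher in LLC. Its other probe gave a lower bound of 1.76-fold, with 16.1 and 16.8 units in LLC with IFN-γ and vehicle, and with 12.1 in AB1-HA with IFN-γ and 5.26 (not well above background) with vehicle. The bound past 2-fold for Itga1 therefore rests on 1 of its 2 probes, and normexp correction took it under 2-fold (0.93).

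The broadly used chains Itgb1, Itgav and Itgb5 were similar in both lines with vehicle. Itgb1, the common partner of most α chains, read 3991 and 5597 units in LLC with IFN-γ and vehicle, and 5216 and 5642 in AB1-HA with IFN-γ and vehicle. The vehicle difference was −0.22 ± 0.20 by this probe and −0.11 ± 0.20 by the other. Itgav, the α chain of RGD-binding receptors that can activate latent TGF-β, differed by −0.13 ± 0.20 and −0.05 ± 0.20 by its 2 probes, and its vitronectin receptor partner Itgb5 by −0.07 ± 0.20. The signs of the Itgb5 and Itgav differences are within the scanner error, and that of Itgb5 turned under quantile (0.01) and cyclic loess (0.04) normalization.

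The β3 chain, which pairs with αV or with platelet αIIb, was higher in LLC: its brighter probe for Itgb3 read 200 units with IFN-γ and 236 with vehicle there, against 22.4 and 27.2 in AB1-HA with IFN-γ and vehicle. The vehicle difference was 2.91 ± 0.25 (1.08 under normexp), and the second probe was not well above background on any array. Itga2b, the platelet αIIb chain, read 17.4 and 21.7 units in LLC with IFN-γ and vehicle and was below background in AB1-HA, at least 2.27-fold higher in LLC with vehicle, a call lost under normexp (0.19). Of 6 megakaryocyte and platelet markers, 2 in LLC with IFN-γ and 3 with vehicle were well above background, against 2 and 3 in AB1-HA with IFN-γ and vehicle, with Gp1ba and Treml1 below it on all arrays. Their summed signal was 0.0506 and 0.132 times the 75th percentile in LLC with IFN-γ and vehicle, and 0.038 and 0.0724 times in AB1-HA with IFN-γ and vehicle. The sum in LLC with vehicle was led by Ppbp (169 units), and single markers went both ways. Of 3 with a value between the lines with vehicle, 1 was 2-fold higher in LLC (Ppbp, 2.66) and 1 lower (Gp9, at least 6.38-fold), with a median of −0.12. The part of these markers in the Itgb3 and Itga2b differences was not tested.

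Chains known from leukocytes were among the largest differences. Itgb2, the common β chain of leukocyte integrins, read 346 units with IFN-γ and 497 with vehicle in LLC, against 36.8 and 32.7 in AB1-HA with IFN-γ and vehicle, a vehicle difference of 3.72 ± 0.26 (2.12 under normexp). Itgax, the αX chain used as the dendritic cell marker CD11c, read 260 and 330 units in LLC with IFN-γ and vehicle and was not well above background in AB1-HA (1.71 and 1.91), at least 34.5-fold higher with vehicle. Itgb7, the chain that gut-homing lymphocytes pair with α4 or αE, read 50785 and 50449 units in LLC with IFN-γ and vehicle, against 4788 and 4400 in AB1-HA with IFN-γ and vehicle, 3.31 ± 0.20 higher in LLC with vehicle. Its partner Itga4 was not well above background by either probe on any array. The pan-leukocyte gene Ptprc was below background on every array, and of the 4 leukocyte markers with a value between the lines with vehicle, 0 were 2-fold higher in LLC and 1 was lower. In bulk RNA, fewer cells of a type and less RNA per cell cannot be told apart.

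Itgal and Itgam, the αL and αM chains, did not separate the lines, and their probes disagreed on level. The brightest Itgam probe read 3198 and 3209 units in LLC with IFN-γ and vehicle and 3698 and 3242 in AB1-HA with IFN-γ and vehicle (−0.23 ± 0.20 with vehicle), while the other 2 stayed at or under 21.3 units. One Itgal probe read between 99.8 and 114 units on all 4 arrays while the other was below background on each. The same split was seen for Lama3, with 1 probe below background on each array. Which probe reflects the mature transcript was not tested. Itgam, Itgax and Itgad lie next to each other among protein-coding genes of chromosome 7, and of these neighbours Itgad was below background on every array.

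Itgbl1 showed the opposite direction. It read 12149 units with IFN-γ and 14940 with vehicle in AB1-HA and was not well above background in LLC (2.08 and 2.03 units), at least 2467-fold lower in LLC with vehicle. The second probe gave the same direction with at least 44.8-fold, from 204 and 271 units in AB1-HA with IFN-γ and vehicle. Itgb8, the chain that with αV binds latent TGF-β, was below background on both LLC arrays and read 21.9 units in AB1-HA with IFN-γ and 7.8, not well above background, with vehicle.

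**Figure D2:**
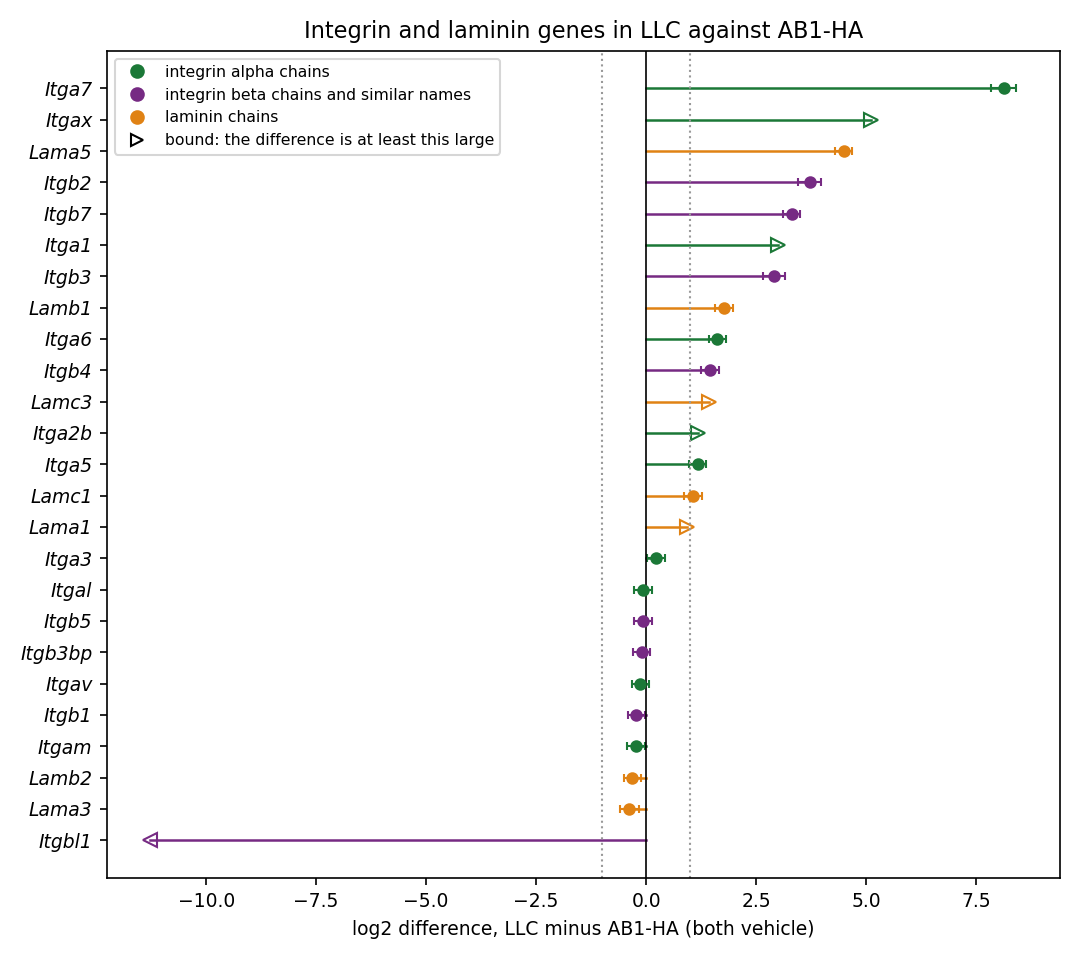
Difference between LLC and AB1-HA with vehicle (log2, LLC minus AB1-HA) for the reported integrin and laminin genes with a value, with the scanner error as bars, open triangles for bounds and dotted lines at 2-fold. Itga7 lies furthest toward LLC at 8.13 and Itgbl1 furthest toward AB1-HA at −11.27.

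Of the 8 laminin genes with a value between the lines with vehicle, 4 were at least 2-fold higher in LLC. Lama5, the α chain of the main adult basement membrane laminins, read 23450 units with IFN-γ and 39230 with vehicle in LLC, against 1894 and 1510 in AB1-HA with IFN-γ and vehicle. The vehicle difference was 4.49 ± 0.20 or 22.4-fold. Lamb1 and Lamc1, the β1 and γ1 chains that most laminins share, were 1.77 ± 0.20 and 1.07 ± 0.20 higher in LLC with vehicle. Lamb1 read 49625 and 79965 units in LLC with IFN-γ and vehicle, against 16060 and 20189 in AB1-HA with IFN-γ and vehicle. Lamc1 read 14368 and 21285 units in LLC with IFN-γ and vehicle, against 6761 and 8732 in AB1-HA with IFN-γ and vehicle.

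Lamb3, the laminin β3 chain, was below background on all 4 arrays. Lama3, an α chain of epithelial laminins, read 80.5 and 78.1 units in LLC with IFN-γ and vehicle and 73.2 and 88.1 in AB1-HA with IFN-γ and vehicle (−0.38 ± 0.21 with vehicle). Lamb2, the β2 chain, read 682 and 1006 units in LLC with IFN-γ and vehicle and 1052 and 1080 in AB1-HA with IFN-γ and vehicle (−0.31 ± 0.20 with vehicle). Neither reached 2-fold. The minor chains were dim: Lamc3 read 17.5 and 25.8 units in LLC with IFN-γ and vehicle and was below background in AB1-HA, at least 2.70-fold higher in LLC with vehicle (a call lost under normexp), and Lama1 and Lama2 were each well above background on 1 array.

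Read as whole receptors from textbook pairings, 22 integrin α-β pairs could be formed from the members with probes. Both chains were well above background for 13 pairs in LLC with IFN-γ and 13 with vehicle, and in AB1-HA for 12 with IFN-γ and 10 with vehicle. The laminin receptors α3β1, α6β1, α6β4 and α7β1, the fibronectin receptor α5β1, and the αV receptors with β1, β3 and β5 had both chains on all 4 arrays. So did the leukocyte pairs αLβ2 and αMβ2. The pairs αXβ2 and αIIbβ3 had both chains on both LLC arrays and on neither AB1-HA array. In AB1-HA, α1β1 and αVβ8 had both chains with IFN-γ and not with vehicle. Their α1 and β8 signals there were dim, 12.1 units for Itga1 by its dimmer probe and 21.9 for Itgb8. Of 11 laminin trimers, 4 had all their chains on every array: laminin-311, laminin-321, laminin-511 and laminin-521. Laminin-311 and laminin-321 rest on 1 of the 2 Lama3 probes. The pairs with β3 rest on 1 of the 2 Itgb3 probes, and αLβ2 on 1 of the 2 Itgal probes. These are counts of transcripts above background, and protein pairing was not measured.

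The second comparison asked how 24 h of IFN-γ changed these genes. The family differed little in either line. In LLC, 0 of 25 members passed 2-fold upward and 1 downward, or 4.0%, where 5.15% of 13411 genes with a value passed it (3.68% higher and 1.46% lower). In AB1-HA, 1 of 23 passed it upward and 0 downward, or 4.35%, where 4.15% of 13208 genes did (2.98% higher and 1.17% lower). Both shares lie near the background. Among members measured on both arrays, the differences ran from −0.75 to 0.36 in LLC and from −0.53 to 0.96 in AB1-HA, and the median size of a difference was 0.24 and 0.20, beside 0.21 and 0.17 over all measured genes.

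Itgb8 was the member past 2-fold in AB1-HA. It read 21.9 units with IFN-γ and 7.8 with vehicle, the second not well above background, which gives at least 2.58-fold higher. In LLC it was below background on both arrays. Lama1, the α chain of embryonic laminin, was the member past 2-fold in LLC, with 18.2 units with vehicle and 2.81, not well above background, with IFN-γ, at least 2.16-fold lower. Both genes lay near the background, and normexp correction took both differences under 2-fold (0.29 for Itgb8 and −0.14 for Lama1).

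Itga7 in AB1-HA came next, at 0.96 ± 0.29 or 1.95-fold from 52.2 units with IFN-γ and 26.1 with vehicle, past those of 97.4% of measured genes. Cyclic loess normalization put it at 1.03 and normexp at 0.47. In LLC, where this chain is bright, its difference was 0.02 ± 0.20. No other member of AB1-HA with 2 measured arrays was above 0.29.

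Several adhesion genes were modestly lower on the IFN-γ array. In LLC the largest such difference was that of the vitronectin receptor chain Itgb5, with 5455 units with IFN-γ and 10454 with vehicle, or −0.75 ± 0.20, lower than those of all but 2.72% of measured genes. In AB1-HA Itgb5 read 10035 and 9476 units with IFN-γ and vehicle, 0.04 ± 0.20. Itgb4 was lower in both lines, −0.63 ± 0.20 in LLC and −0.48 ± 0.21 in AB1-HA (−0.21 under normexp). Itga6 was lower in AB1-HA (−0.53 ± 0.20), while in LLC it was at −0.09 ± 0.20. None of these reached 2-fold.

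The laminin chains with IFN-γ were described by their signs, with no test of the group. In LLC, 7 of 8 laminin genes with a value were below 0 (median −0.37), and in AB1-HA 5 of 7 were (median −0.20). The medians over all genes with a value were −0.06 and −0.08, and 42.4% of measured genes in LLC and 35.5% in AB1-HA lay above 0. The AB1-HA count is thus near the share over all genes. The chains of laminin-511 in LLC were at −0.55 ± 0.20 for Lama5, −0.50 ± 0.20 for Lamb1 and −0.38 ± 0.20 for Lamc1. In AB1-HA these chains were at 0.29 ± 0.20, −0.37 ± 0.20 and −0.41 ± 0.20. Lamb2 was at −0.37 ± 0.20 in LLC and −0.08 ± 0.20 in AB1-HA. Scaling to the array median moved the median of all measured genes in LLC to −0.20, against −0.06 here, and Lama5 was then at −0.70.

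The remaining integrin chains stayed close to their vehicle levels. In LLC, Itgav was at −0.35 ± 0.20, Itgb2 at −0.33 ± 0.20, Itgb1 at −0.30 ± 0.20, Itgax at −0.15 ± 0.20 and Itgb7 at 0.20 ± 0.20. In AB1-HA, Itgbl1 was at −0.34 ± 0.20, Itgb3 at −0.32 ± 0.34, Itgav at −0.25 ± 0.20 and Itgb1 at −0.15 ± 0.20. Of the genes with several measured probes, 0 had probes 2-fold or more apart in their IFN-γ difference in either line. The centromere gene Itgb3bp was at 0.36 ± 0.20 in LLC and −0.02 ± 0.20 in AB1-HA by its brighter probe. Its dim probe gave −0.45 ± 0.53 and 0.38 ± 0.67, each within its scanner error of 0.

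**Figure D3:**
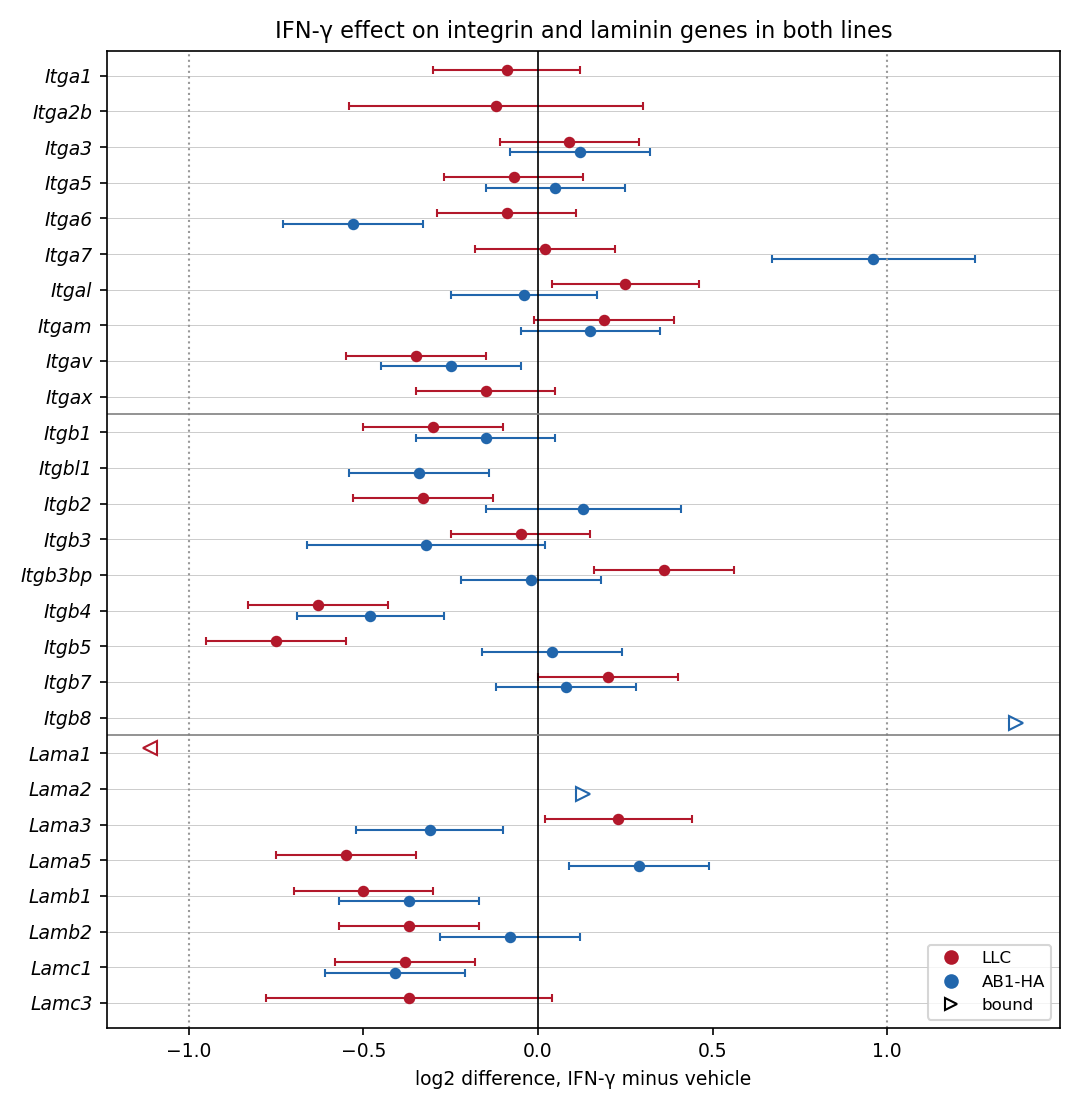
IFN-γ effect (log2, IFN-γ minus vehicle) on integrin and laminin genes in LLC and in AB1-HA, with the scanner error as bars, open triangles for bounds and dotted lines at 2-fold. The bounds of Itgb8 in AB1-HA and Lama1 in LLC lie past 2-fold, and Itga7 in AB1-HA (0.96) lies just short of it.

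The third comparison set the IFN-γ effect in LLC against that in AB1-HA, over the 20 members well above background on all 4 arrays. None differed by 2-fold (0 of 20), where 4.23% of 11985 genes did (2.54% higher and 1.69% lower). The effects lay furthest apart for Itga7 (−0.95 ± 0.36), Lama5 (−0.84 ± 0.29) and Itgb5 (−0.79 ± 0.29), in each case lower in LLC, and for Lama3 (0.54 ± 0.30) in the other direction. The median was −0.06, beside 0.03 over all genes. Under array median scaling and cyclic loess normalization, Itga7 passed 2-fold.

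Probes of a gene are shown apart for the 12 members with several. Their levels differed, and so did the closeness of their differences between arrays. Itgb1 gave −0.30 and −0.38 for IFN-γ in LLC, and −0.15 and −0.16 in AB1-HA. Itgav gave −0.35 and −0.13 in LLC and −0.25 and −0.18 in AB1-HA. The probes of Itgb3bp went opposite ways and those of Itgam in AB1-HA lay 0.58 apart, in both cases with dim probes of large scanner error. For the difference of effects, Itgb3bp gave 0.39 ± 0.29 by its brighter probe and −0.83 ± 0.85 by the other, more than 2-fold apart. Between the lines with vehicle, 1 gene had measured probes at least 2-fold apart, Itgam, whose dim probes gave 0.28 ± 0.46 and −0.93 ± 0.47.

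**Figure D4:**
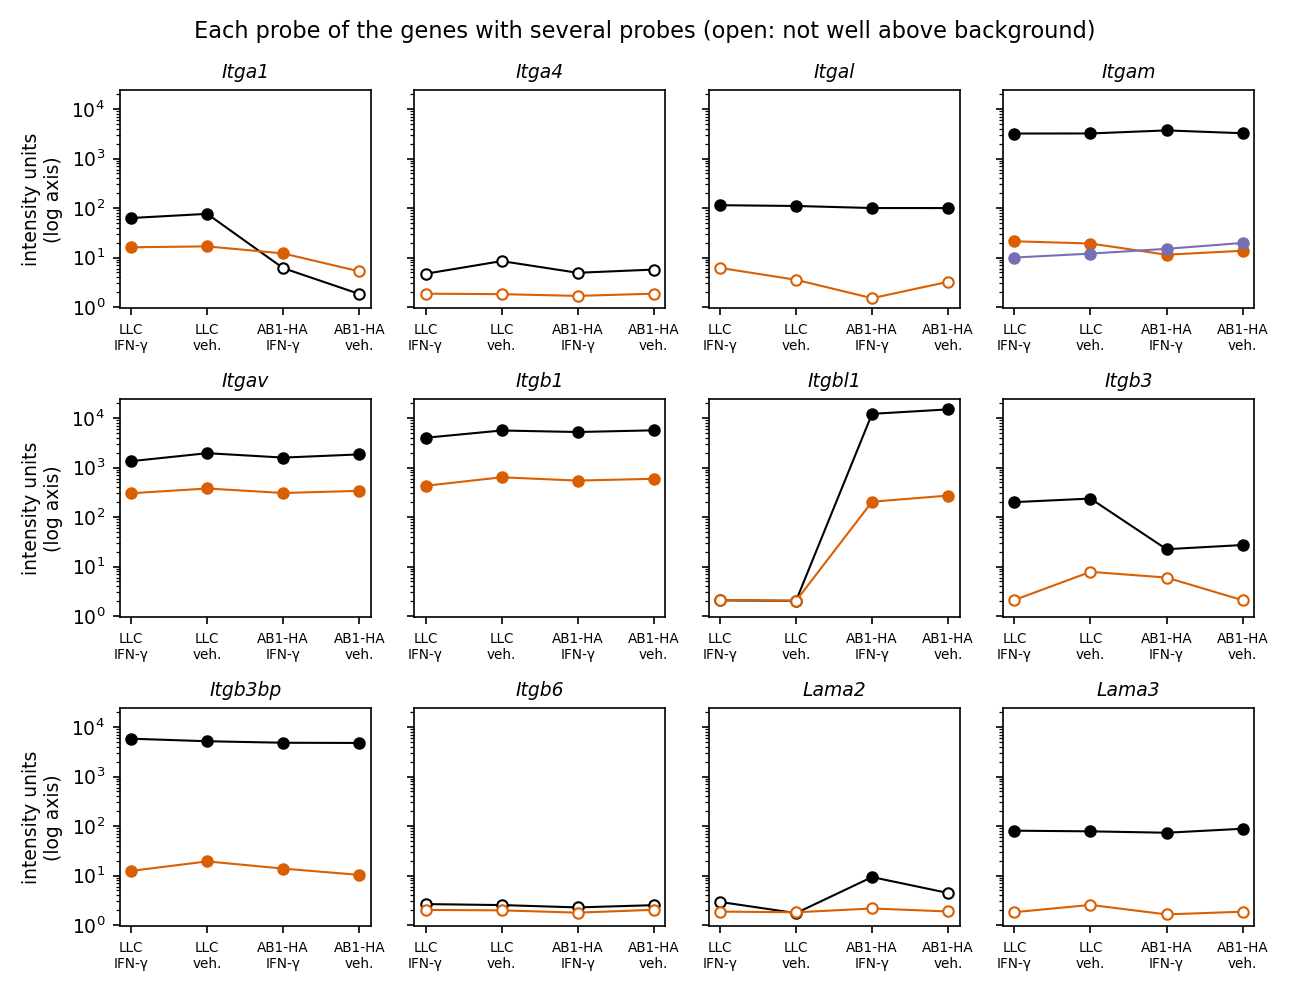
Processed signal (intensity units, log axis) of every probe of the 12 integrin and laminin genes with several probes on the 4 arrays, lines joining the values of a probe and open points marking signals not well above background. Both Itgbl1 probes are high in AB1-HA alone, while the probes of Itgam, Itgal and Lama3 lie far apart on every array.

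The genes that work beside these receptors were read from 3 lists. Of 37 integrin adhesome genes, whose proteins gather at integrin tails, 35 in LLC and 34 in AB1-HA had a value for IFN-γ. Past 2-fold were 1 in LLC (Nedd9) and 0 in AB1-HA, where 5.15% and 4.15% of all genes with a value were. Nedd9, a scaffold of the focal adhesion kinase pathway, read 47.4 units with IFN-γ and 205 with vehicle in LLC (−1.92), and 1196 and 1047 in AB1-HA with IFN-γ and vehicle (0.15). Between the lines with vehicle, 6 of 35 were higher in LLC and 7 lower, near the shares over all genes (16.4% and 16%). The adaptor Dab2 (7.18) and the adhesion protein Zyx (1.93) were higher in LLC, and Kank1 (−4.65), which links talin to the cell cortex, and Nedd9 (−2.57) were lower. The talin gene Tln1 was at 0.34 with vehicle, −0.22 with IFN-γ in LLC and −0.04 with IFN-γ in AB1-HA, and its dimmer probe gave 0.08, 0.41 and −0.25 for the same comparisons. The other talin gene, Tln2, was lower with IFN-γ in both lines by both of its probes. Its brighter probe, through which it is counted, was at −0.7 in LLC and −0.39 in AB1-HA. Its dimmer probe passed 2-fold in LLC (−1.13 ± 0.25) and was at −0.83 ± 0.45 in AB1-HA. A second probe of Tns1 was also past 2-fold lower with IFN-γ in LLC (−1.88), while its brighter probe was at 0.14.

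Among 24 other integrin ligands and matrix genes, Npnt, which encodes the α8β1 ligand nephronectin, was lower with IFN-γ in both lines: 21.5 units with IFN-γ and 53.3 with vehicle in LLC (−1.12), and 15.1 and 85.5 in AB1-HA (−2.54). Its receptor chain Itga8 was below background on every array. Icam2, a ligand of the β2 integrin αL, read 404 units with IFN-γ and 39.8 with vehicle in AB1-HA (3.30), and 331 and 189 in LLC (0.99). These 2 were the genes of the list past 2-fold in either line. In LLC this was 1 of 19 genes with a value, where 5.15% of all genes passed 2-fold. In AB1-HA it was 2 of 17, where 4.15% of all genes did. With vehicle, Ccn2 (−8.62), a growth factor of the matrix, and the matrix protein Thbs1 (−4.88) were lower in LLC, and Fbln1 and the αV ligand Edil3 were at least 154-fold and 38.2-fold higher.

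Of 28 basement membrane and laminin receptor genes, 24 had a value for IFN-γ in each line. In LLC 1 was 2-fold higher and 1 lower, where 5.15% of all genes passed 2-fold. In AB1-HA 1 was higher and 0 lower, where 4.15% did. The guidance cue Ntn1, a laminin relative, was higher in both: 5722 units with IFN-γ and 3071 with vehicle in LLC (1.09), and 37.9 and 2.03, not well above background, in AB1-HA (at least 4.46-fold). Col7a1, the collagen of anchoring fibrils, read 717 units with IFN-γ and 2662 with vehicle in LLC (−1.70), and 65.0 and 117 in AB1-HA (−0.88). With vehicle, 11 of 24 were higher in LLC and 7 lower, where 16.4% and 16% of all genes were, led by Ntn1 (at least 321-fold), Smoc1 (at least 77-fold) and Col7a1 (4.30) above and Ntn4 (−3.08) below. Other basement membrane genes, picked after their values were seen, lay on both sides. Nid1 was at 2.75, Hspg2 at 2.36, Agrn at 2.75, Col4a1 at 2.79 and Col4a2 at 2.39, while Col4a5 was at −2.60, Col4a4 at −1.0, Col4a6 at −0.44 and the laminin receptor gene Dag1 at −0.43. Also lower in LLC were Cd9 (−2.04), Sdc4 (−1.47), Cd151 (−1.27) and Cd81 (−1.25), and also higher were Sdc1 (1.31), Dst (1.25) and Plec (1.21). Nid2 was below background on every array. The median of the list with vehicle was 0.63, and with IFN-γ it was −0.30 in LLC and −0.25 in AB1-HA.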

How the data were processed

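RNA of 4 groups was hybridised to 4 one-colour arrays. Per the labels' protocols, total RNA was column-purified and labelled with Cy3. The intensity columns were deposited as the scanner wrote them, from Feature Extraction 10.7.1.1 per the file headers, with background correction but no normalization between arrays. The deposited value table holds log2 values whose making the sources used here do not state. Its columns correlated at 0.999 with scaled log2 signals after probe-wise median centring, in the direction of the signal (column medians 0.08 and −0.13 for LLC and −0.08 and 0.11 for AB1-HA, each with IFN-γ and vehicle).

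Here each array's 75th percentile was subtracted from its log2 signals. Control spots and outlier-marked spots (166 to 201 per array, 0 of a member) were left out, and a probe counted as well above background where at least 0.5 of its spots carried the scanner's mark. Accessions matched to a RefSeq table (GRCm38.p6, used for names, neighbours and promoters, while the array annotation is of another build) named 26581 of 39429 probes. Near-identical copies were not resolved. The scanner error is the software's error of each signal, combined over the spots compared. Repeat spots of one probe had a median SD of the difference of 0.041 in LLC and 0.062 in AB1-HA.

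The members and lists were chosen with earlier results of these data known. Members past 2-fold with IFN-γ and the 5 largest differences per direction between the lines were named with full values, except for a member that is not reported here and was left out of the figures but stays in the counts. From the lists, genes past 2-fold with IFN-γ and up to 4 of the largest line differences were named. Alternatives were array median, quantile and cyclic loess scaling, normexp on median spot signals with offset 50, the authors' value table, both background filters, the mean over probes and outlier spots kept, and for the counts of genes above background 2 other detection rules. Tools were R 4.3.3 (limma 3.58.1) and Python 3.11.15 (pandas 2.3.3, numpy 2.4.6, matplotlib 3.10.9).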

Additional observations from a re-analysis of the deposited data

Results flagged for a closer look

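The IFN-γ effects of 2 laminin genes ran in opposite directions in the lines, each by more than its scanner error, with 1 array per group. Lama5 was at −0.55 ± 0.20 in LLC and 0.29 ± 0.20 in AB1-HA (0.19 under normexp), a difference of effects of −0.84. Lama3 was at 0.23 ± 0.21 in LLC and −0.31 ± 0.21 in AB1-HA, a difference of 0.54, by the 1 of its 2 probes above background. Array median scaling moved the median of all measured genes in LLC from −0.06 to −0.20. That step is larger than the margin by which Lama3 passed its error in LLC. Neither difference was tested.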

How the results depend on the processing

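Over 9 alternatives, 1069 single-member differences were recomputed, of which 978 moved by less than the scanner error, 91 by more and 0 of those past 2-fold here changed sign. Sign changes were counted only for differences past 2-fold here, and some smaller ones did change sign. By the mean over probes, Itgb3 did in its difference of effects (0.28 here, −1.45) and in its IFN-γ difference in AB1-HA (−0.32 here, 0.58). Among others that did were the IFN-γ differences in AB1-HA of Itgam by the mean over probes (0.15 here, −0.2) and of Itga5 under normexp (0.05 here, −0.05). Part of the 978 was fixed in advance, so that count is no measure of stability. Genes measured on both arrays keep their value whichever background filter is used, and the 26 genes with 1 probe keep theirs by the mean over probes. Most moves came under normexp (28) and by the mean over probes (23). For IFN-γ in AB1-HA, 1 member was higher here, 2 under the authors' value table (with Lama2) and cyclic loess (with Itga7), 3 without a background filter (where 1, Itga9, was lower), and 0 under normexp or over genes measured on both arrays. For IFN-γ in LLC, the 1 lower member was lost (0) under normexp and over genes measured on both arrays. For the difference of effects, 0 members passed 2-fold here, 1 was lower under array median and cyclic loess scaling, 1 was higher and 1 lower by the mean over probes, and 1 was higher and 3 lower without a filter. Between the lines with vehicle, 9 of the 14 higher members stayed under normexp (median 0.46), while over measured genes 1 was lower (median 0.65) and without a filter 5 were lower (median −0.08). On the IFN-γ arrays, 9 were higher under normexp (median 0.31), 1 was lower over measured genes (median 0.67), and the median was 0.20 without a filter. There array median scaling left 15 of 17 calls (without Itga5 and Lamc1), normexp took away those of Itga1, Itga2b, Itga5, Itgb4, Itgb8 and Lamc3, and the mean over probes lost Itgb3 (0.85) and gained Itgal. The filters change which genes are counted, and the cause of the normexp values was not tested. Low signals, near the background, limit Itga2b, Itgb8, Lama1, Lama2 and Lamc3. No paired analysis was possible because each group had 1 array.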
